A study of Mus musculus with 30 samples.

Results

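The microRNAs miR-10 and miR-196 are encoded inside the Hox clusters, and their 5 mouse precursors (Mir10a, Mir10b, Mir196a-1, Mir196a-2 and Mir196b) were followed through 5 organs of Ftsj1-deficient and wild-type mice. The members were the features carrying these symbols, and all 5 were found among the 2194 named features of each organ's table. Small RNA had been sequenced from kidney, spleen, liver, heart and brain of 6 males aged 4 months, which gave 30 libraries. Each organ had 3 libraries from mice labelled Ftsj1_DF (mouse numbers 1647, 1654 and 1656) and 3 from mice labelled WT (1646, 1653 and 1655). Ftsj1 encodes a methyltransferase that modifies the ribose of tRNA, and the labels name neither the allele nor the strain. Numbers 1653, 1654, 1655 and 1656 were brothers, and so were 1646 and 1647, so each set of brothers held both genotypes. Whole organs of untreated animals were used, and in them fewer cells of a type and less RNA per cell cannot be told apart. Small RNA tables do not count Ftsj1 mRNA, and the genotype labels were not checked from these values.

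Hox genes give cells their position along the body axis, and the microRNAs that sit between them are transcribed in domains related to those of their neighbours. Each microRNA is cut from a hairpin precursor and pairs with target mRNAs mainly through its seed, bases 2 to 8 from its 5′ end. Hox mRNAs are themselves among the known targets, Hoxd10 for miR-10b and Hoxb8 for miR-196. The kidney arises from the intermediate mesoderm of the trunk and is known to express Hox genes in the adult.

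The mature 5′ arms are shown first because they sort the 5 precursors into 2 seed groups and decide which precursors a read can be assigned to. They are given from RefSeq's table for GRCm38.p6, which matched 5 of 5 members by symbol, with the seed in capitals.
Mir10a 5p: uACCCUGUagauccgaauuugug
Mir10b 5p: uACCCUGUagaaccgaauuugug
Mir196a-1 5p: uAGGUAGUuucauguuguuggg
Mir196a-2 5p: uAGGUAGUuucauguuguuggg
Mir196b 5p: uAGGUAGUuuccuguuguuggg
The miR-10 arms share 22 of 23 bases and differ by U12A, counted from the 5′ end with the miR-10a base first. The miR-196a and miR-196b arms share 21 of 22 bases and differ by A12C, with the miR-196a base first. Both copies of miR-196a carry the same 22 bases, so a read of the 5′ arm does not name its locus. Their 3′ arms differ at 17 of 22 positions and are the mature sequences that tell the copies apart.
Mir196a-1 3p: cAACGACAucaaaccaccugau
Mir196a-2 3p: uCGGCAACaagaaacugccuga
Among 1738 mature sequences in that table, the seed ACCCUGU occurred in 2 precursors and the seed AGGUAGU in 3, in each case the members alone. The letters of the miR-196 seed also lie inside let-7a, moved by 1 base, as the 5′ arm of that widespread regulator of differentiation shows.
Mirlet7a-1 5p: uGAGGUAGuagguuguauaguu

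The precursors lie in all 4 mammalian Hox clusters. In GRCm38.p6 coordinates from RefSeq, Mir10a lies on the plus strand at chr11:96317165-96317274, between Hoxb5 and Hoxb4 in GENCODE M21. Mir10b lies on the plus strand at chr2:74726070-74726137, inside the annotated spans of Hoxd3 and Hoxd4 and outside their exons. Mir196a-1 shares the Hoxb cluster with Mir10a, at chr11:96265164-96265265 on the plus strand between Hoxb13 and Hoxb9. Mir196a-2 lies at chr15:102973350-102973434 on the plus strand between Hoxc10 and Hoxc9, inside the annotated span of Hoxc5 and outside its exons. Mir196b lies at chr6:52230081-52230165 on the minus strand and overlaps an exon of Hoxa9 on the same strand. The deposited counts were made on GRCm39, per the submitters' processing notes, and no coordinate of that build is given here.

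All 5 precursors were highest in kidney, and the miR-196 precursors were low in every other organ. Levels are given as ppm, the mean normalized count of a feature per 1000000 of the organ's summed means, computed from the authors' deposited tables. The summed means ran from 8511372 in heart to 21787131 in kidney. Each mean is over 6 libraries, and the tables were normalized separately, so levels between organs were described and not tested. The error of a level was approximated, on the log2 scale, by the deposited standard error of its fold change divided by 2. The organ labels were set against fixed marker microRNAs. The neuron list made up 20.1% of the total in brain and at most 0.211% elsewhere, from 6 of its 9 symbols, since Mir124-1, Mir124-2 and Mir124-3 were not matched and Mir9-1 was listed at 0 in all 5 tables. The heart muscle list made up 11.6% in heart and at most 0.0332% elsewhere, with Mir1a-2, 1 of its 7 members, listed at 0 throughout. Mir122 made up 26.2% in liver. The leukocyte list made up 1.47% in spleen and at most 0.184% elsewhere, with Mir142, one of its defining members, listed at 0 in all 5 tables. No fixed list marked kidney alone: Mir192 and both Mir194 copies, which mark liver and gut as well, stood at 2.60% in kidney and 7.58% in liver.

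Mir10a, from the Hoxb cluster, reached 63812 ppm in kidney, against 8982 ppm in spleen, 6424 ppm in liver, 3847 ppm in heart and 448 ppm in brain. It ranked 4 among 1025 features detected in kidney, and its kidney level was 7.10 times that of spleen and 142 times that of brain. Spleen and liver were close, with a log2 difference of 0.48 (approximate standard error 0.20). Relative to the median of features shared by all organs, liver stood above spleen and kidney was 4.25 times liver, the next organ. Mir10b, from the Hoxd cluster, reached 43581 ppm in kidney, where it ranked 5, against 1755 ppm in heart, 939 ppm in spleen, 399.7 ppm in brain and 212 ppm in liver. Its kidney level was 24.8 times that of heart and 205 times that of liver, and liver stood above brain under the same median scaling. Together the miR-10 precursors made up 10.7% of the total in kidney, 0.992% in spleen, 0.664% in liver, 0.560% in heart and 0.0848% in brain.

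The miR-196 precursors were much less abundant, and the distance between kidney and the other organs was wider. Mir196b, which overlaps Hoxa9, stood at 982 ppm in kidney, against 12.5 ppm in spleen, 3.85 ppm in heart, 1.24 ppm in liver and 0.934 ppm in brain. Its kidney level was 78.7 times that of spleen and 1051 times that of brain. Mir196a-1 stood at 448 ppm in kidney, against 2.71 ppm in spleen, 1.26 ppm in heart, 0.501 ppm in brain and 0.324 ppm in liver, so that kidney exceeded spleen 165-fold. Mir196a-2 stood at 472 ppm in kidney, against 3.25 ppm in spleen, 1.18 ppm in heart, 0.711 ppm in brain and 0.675 ppm in liver, with kidney at 146 times spleen. Several neighbours in these orders lay within their approximate 95% interval of each other. For Mir196a-1 these were spleen and heart, heart and brain, and brain and liver. For Mir196a-2 they were heart and brain, and brain and liver, and for Mir196b liver and brain. By the median scaling, liver stood above brain for both Mir196a copies, and above heart for Mir196a-2.

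**Figure D1:**
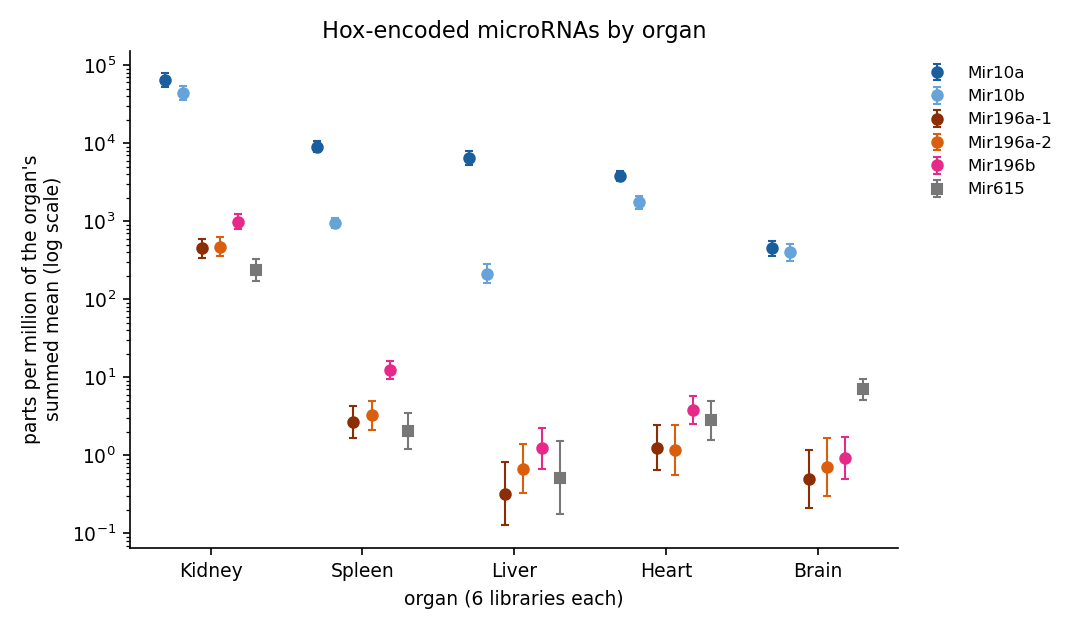
Level of the 5 precursors and of Mir615 in the 5 organs in ppm of the organ's summed mean on a log scale, 1 point per precursor and organ (mean of 6 libraries), with bars for approximate 95% intervals from the deposited standard errors. Kidney holds the highest point of every precursor, Mir10a at 63812 ppm, and the miR-196 points lie at or below 12.5 ppm elsewhere.

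Mir615, another microRNA of the Hox clusters, lies within Hoxc5 and was also highest in kidney. It stood at 239.6 ppm in kidney, against 6.98 ppm in brain, 2.81 ppm in heart, 2.04 ppm in spleen and 0.516 ppm in liver. Set against all features, a kidney level this far above the next organ was rare. Of 639 features with a mean of at least 10 in some organ, 43 were highest in kidney, which is 6.73%, and 6 of the 639, or 0.939%, exceeded the next organ more than 10-fold there. Of these 6 features, 5 were Mir196a-1, Mir196a-2, Mir196b, Mir615 and Mir10b. The other was Mir205, an epithelial microRNA singled out after its value was seen, at 22.7 times the next organ. Mir10a came next in that order at 7.10 times, or 4.25 times by the median scaling. Mir196a-1 and Mir196a-2 carry the same 5′ arm, whose reads do not name their locus, so they are not independent counts among these features.

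**Figure D2:**
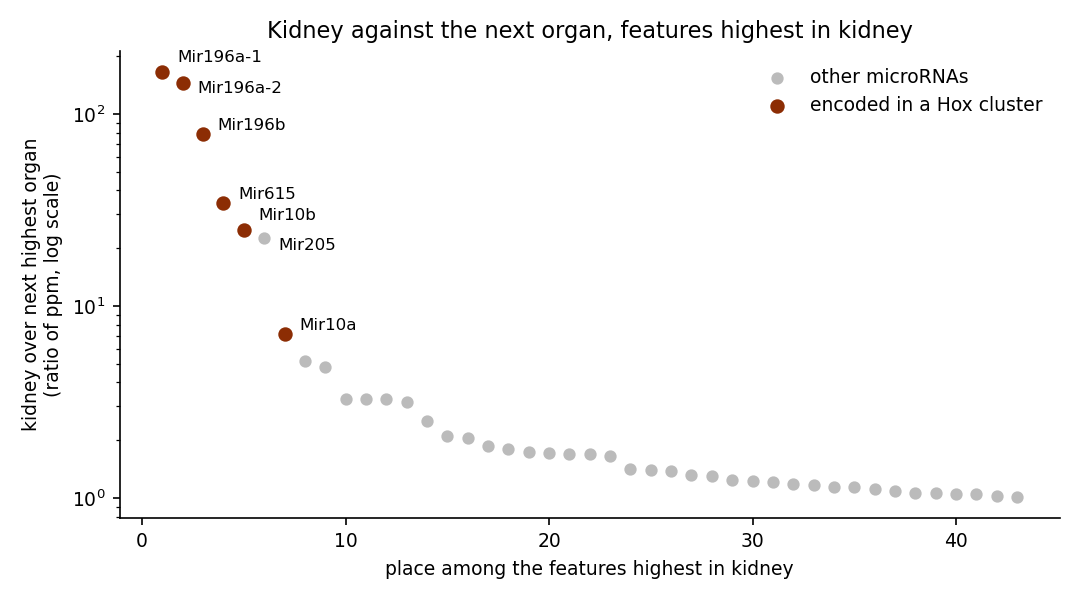
The 43 features highest in kidney, ordered by the ratio of their ppm in kidney to that in the next highest organ (log scale), 1 point per feature. The 6 Hox-encoded precursors take places 1 to 5 and 7, and Mir205 takes place 6. Places 1 and 2 are Mir196a-1 and Mir196a-2, which share their 5′ arm and are not independent.

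The balance between members differed by organ, and these ratios within an organ do not depend on how organs are scaled against each other. The mature 5′ arms of Mir10a and Mir10b are equally long, and in brain Mir10a was 1.12 times Mir10b. The ratio was 1.46 in kidney, 2.19 in heart, 9.56 in spleen and 30.2 in liver. In the authors' deposited liver table Mir10a had a mean of 121686 and Mir10b of 4024 normalized counts, so that Mir10b was 3.31% of Mir10a there. The arms differ by 1 base, and the number of mismatches allowed in alignment is not stated by any source at hand, so the share of Mir10b that could be Mir10a reads was not tested. Mir196b was 1.07 times the sum of both Mir196a precursors in kidney, 2.10 times in spleen, 1.58 times in heart, 1.24 times in liver and 0.771 times in brain. The miR-10 sum exceeded the miR-196 sum 56.5-fold in kidney, 395-fold in brain, 538-fold in spleen, 891-fold in heart and 2967-fold in liver.

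**Figure D3:**
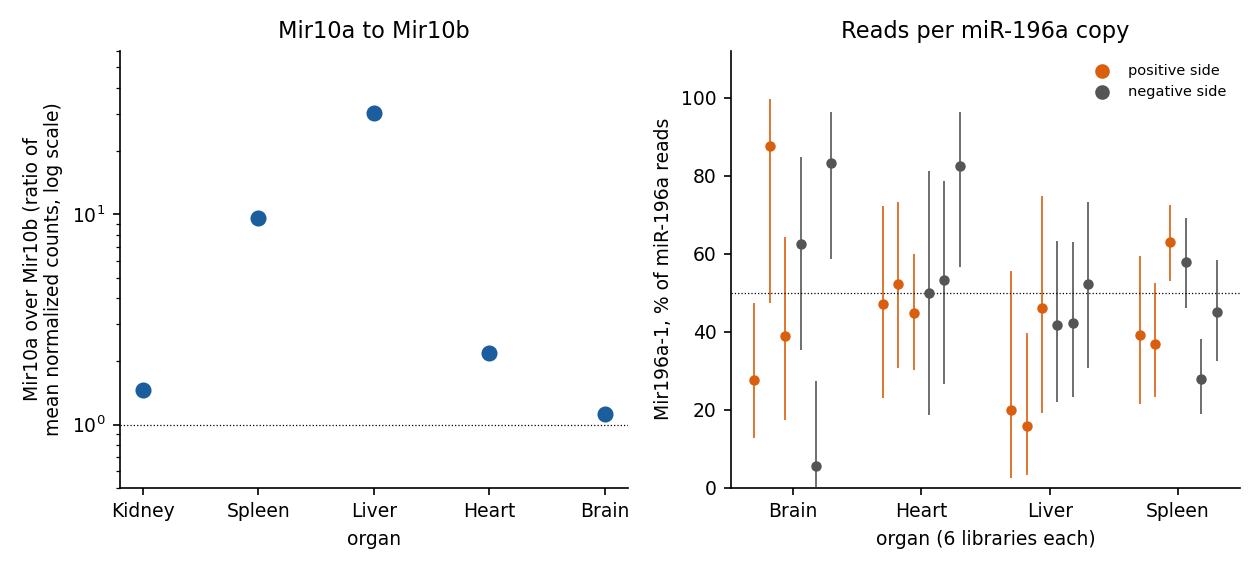
Left, the ratio of Mir10a to Mir10b mean normalized counts in each organ on a log scale, from 1.12 in brain to 30.2 in liver. Right, the share of Mir196a-1 among the reads of both miR-196a precursors in each of 6 libraries per organ, with bars for exact Clopper-Pearson 95% intervals, from 5.56% to 87.5% in brain.

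Outside the kidney, 11 of the 12 miR-196 means were low enough to be split into whole reads per library. The tables do not name the numerator of the fold change, so the libraries were known only as the 3 on its positive side and the 3 on its negative side. On the positive side, brain Mir196a-1 had 8, 7 and 7 reads, against 10, 1 and 15 on the negative side. Brain Mir196a-2 had 21, 1 and 11 reads in positive-side libraries, against 6, 17 and 3 in negative-side libraries. For brain Mir196b the positive-side libraries held 8, 20 and 15 reads, and the negative-side libraries 7, 21 and 20. The sides overlapped for all 3 precursors in brain, and every brain library held at least 1 read of each.

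Heart Mir196b had normalized counts (reads divided by a library's size factor) of 41.3, 36.1 and 22.0 on the positive side, against 32.7, 39.4 and 25.0 on the negative side. For heart Mir196a-1 the values were 13.2, 17.3 and 8.88 on the positive side, against 7.78, 10.9 and 6.13. Both precursors had overlapping sides. Heart Mir196a-2 had 14.9, 15.9 and 11.0 on the positive side, against 7.78, 9.51 and 1.31 on the negative side, from 46 and 15 reads. It was the 1 case of these 11 in which the sides did not overlap. Among all features whose mean lay between 5 and 40 and could be split in the same way, the sides were apart for 10.9% of 192 in heart, 7.23% of 235 in spleen, 15% of 167 in liver and 13% of 216 in brain, so 1 of 11 is near the background. In the authors' deposited heart table its log2 fold change was 1.23, with a standard error of 1.09, an unadjusted DESeq2 p of 0.259 and no adjusted p.

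In liver the positive-side libraries were the shallower ones, with size factors of 0.500 to 0.729, against 1.45 to 2.15 on the negative side. Liver Mir196a-1 had 2, 3 and 6 reads on the positive side, against 10, 11 and 12 on the negative side, and as normalized counts 4.00, 4.99 and 8.23 against 6.89, 7.16 and 5.57. For liver Mir196a-2 the normalized counts were 16.0, 26.6 and 9.60 on the positive side, against 9.64, 9.77 and 5.10. For liver Mir196b they were 22.0, 25.0 and 21.9 on the positive side, against 34.4, 28.0 and 9.28. The sides overlapped for all 3 precursors in liver.

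Spleen, the organ with the next highest miR-196 level, gave the most reads. Spleen Mir196a-1 had normalized counts of 17.5, 22.9 and 42.7 on the positive side, against 49.8, 22.7 and 18.8 on the negative side. For spleen Mir196a-2 they were 27.1, 39.1 and 25.0 on the positive side, against 36.2, 58.9 and 22.8. The sides overlapped for both.

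**Figure D4:**
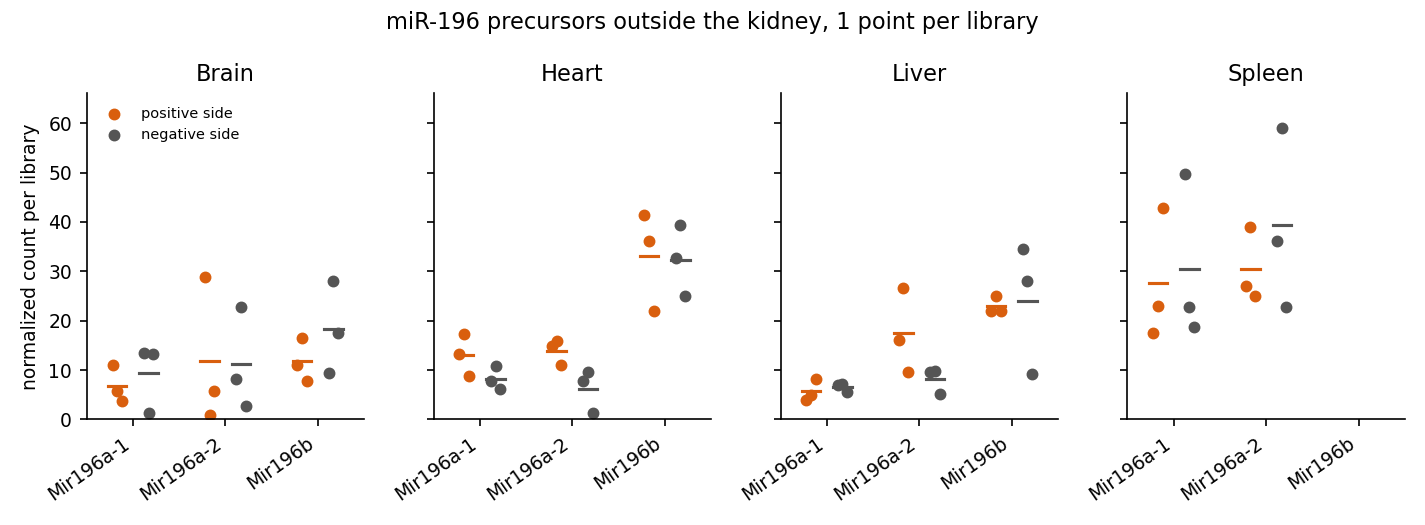
Normalized counts of the miR-196 precursors per library outside the kidney, 3 points on the positive side of the fold change (left) and 3 on the negative side (right) of each pair, with a line at the mean of each side. The sides overlap except for Mir196a-2 in heart, where 10.9% of all features split in this way have sides apart, and Mir196b in spleen has no points because its mean was too high to be split into reads.

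Although both miR-196a copies carry the same 5′ arm, the share of reads on each copy varied between libraries. In brain, Mir196a-1 took 44.9% of 107 reads over all libraries (exact Clopper-Pearson 95% interval 35.2 to 54.8%). Single brain libraries ran from 1 of 18 reads (5.56%, interval 0.141 to 27.3%) to 7 of 8 (87.5%, interval 47.3 to 99.7%). In spleen Mir196a-1 took 46.9% of 405 reads, and single libraries ran from 27.8% (interval 18.9 to 38.2%) to 63.1% (interval 53.0 to 72.4%). The intervals of the lowest and the highest library, picked from 6 after their values were seen, did not meet in brain, nor in spleen. Heart shares ran from 44.7 to 82.4% and liver shares from 15.8 to 52.2%. There the intervals of the lowest and the highest library did meet. They were 30.2 to 59.9% and 56.6 to 96.2% in heart, and 3.38 to 39.6% and 30.6 to 73.2% in liver. These intervals cover counting error only. How reads matching both loci were placed is not stated by any source at hand, so values of the single copies are uncertain in every organ.

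Between the genotypes, no precursor passed in any organ. The comparison asks whether a microRNA differs between Ftsj1-deficient and wild-type mice in an organ, and it was taken from the authors' DESeq2 results at an adjusted p of 0.05. Of 25 contrasts, 5 precursors in 5 organs, 0 passed and 0 had an unadjusted DESeq2 p under 0.05. The 23 that carried an adjusted p in the authors' deposited tables had values from 0.443 to 0.999. Among features with an adjusted p, 0% of 1022 passed in kidney, 0% of 1208 in spleen and 0% of 1030 in brain. In liver 0.229% of 872 passed, and in heart 1.13% of 355. The heart base is unlike the others, since only 355 of its 1107 features with a p carried an adjusted one. Of features with a p, 4.5% in kidney, 3.48% in spleen, 3.9% in liver, 5.33% in heart and 2.23% in brain lay under 0.05 unadjusted. With shares this small, a count of 0 among 5 precursors is near the background. Signs are given as deposited, and which genotype a positive one stands for is unknown. They were positive in 11 contrasts and negative in 14, and the 95% intervals of all 25 included 0.

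The miR-10 contrasts had standard errors of 0.22 to 0.41, and their intervals bound the difference that these libraries leave room for. In the authors' deposited kidney table, where both are most abundant, Mir10a had a log2 fold change of 0.22, with a standard error of 0.31 and a DESeq2 adjusted p of 0.975. Its 95% interval ran from 0.769-fold to 1.77-fold. Kidney Mir10b stood at 0.21, with a standard error of 0.31, in the authors' deposited table, and its interval ran from 0.761-fold to 1.75-fold. The smallest p of any member belonged to heart Mir10b. In the authors' deposited table its log2 fold change was -0.54, with a standard error of 0.28, an unadjusted p of 0.0552 and a DESeq2 adjusted p of 0.443. Heart Mir10a was at -0.20, with a standard error of 0.22, in the authors' deposited table. For spleen the authors' deposited table gave -0.36 for Mir10a, with a standard error of 0.24, and -0.31 for Mir10b, with a standard error of 0.22. For liver the authors' deposited table gave 0.14 for Mir10a, with a standard error of 0.31, and 0.18 for Mir10b, with a standard error of 0.41. For brain the authors' deposited table gave -0.03 for Mir10a, with a standard error of 0.33, and -0.09 for Mir10b, with a standard error of 0.36. The signs of the miR-10 precursors matched in each organ, as values of the same libraries.

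Among the miR-196 contrasts, those in kidney and that of Mir196b in spleen were about as precise as those of miR-10. In the authors' deposited kidney table Mir196b had a log2 fold change of 0.04, with a standard error of 0.33 and a DESeq2 adjusted p of 0.989. Its interval ran from 0.653-fold to 1.61-fold. Kidney Mir196a-1 and Mir196a-2 were at -0.37 and -0.45 in the authors' deposited table, each with a standard error of 0.41 and a DESeq2 adjusted p of 0.975. Spleen Mir196b, with a mean of 134 normalized counts in the authors' deposited table, was at 0.31, with a standard error of 0.39. The 11 contrasts with a mean under 40 had standard errors of 0.61 to 1.38. Their intervals were wide, from 0.184-fold to 5.90-fold for brain Mir196a-2, and differences within them could not be told from none with these libraries. Counting error alone, from the summed reads of each side, was 0.20 to 0.50 on the log2 scale and lay below the deposited standard error in 11 of 11. The deposited error already includes counting error, so this order was nearly fixed in advance.

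Mir615 had its smallest p in heart. In the authors' deposited table its log2 fold change there was -1.72, with a standard error of 0.84, an unadjusted p of 0.0412 and a DESeq2 adjusted p of 0.365. The heart libraries had 18.2, 4.33 and 11.4 normalized counts on the positive side, against 9.34, 35.3 and 64.8 on the negative side, and the sides overlapped. Liver Mir615 had 14.0, 21.6 and 9.60 on the positive side, against 7.58, 5.86 and 0 on the negative side, without overlap, as for 15% of the liver features split in this way. Its log2 fold change in the authors' deposited liver table was 1.76, with a standard error of 1.58 and a DESeq2 adjusted p of 0.991.

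**Figure D5:**
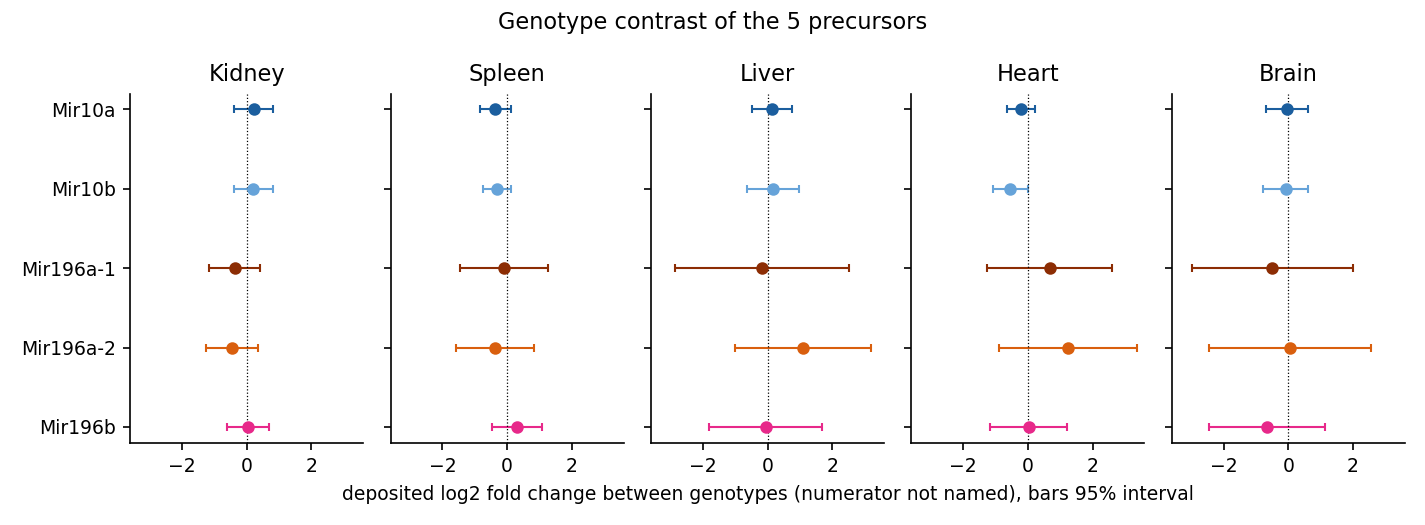
Deposited log2 fold changes between the genotypes for the 5 precursors in each organ, with bars for 95% intervals from the deposited standard errors. The numerator is not named in the tables, and all 25 intervals include 0.

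No difference of a member's contrast between organs passed. Over 10 organ pairs, 50 differences of deposited log2 fold changes were divided by their combined standard errors and tested as two-sided z values, adjusted over all features of a pair. At the adjusted threshold 0 passed. The smallest unadjusted p was 0.0727, so 0 of the 50 lay under 0.05, and the smallest adjusted p was 0.989. Across all features 1 of 747 passed between kidney and liver, or 0.134%, and 0% in each of the other pairs. The organs came from the same mice, and the z value treats them as independent.

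The relatives of the members by sequence were counted in the same tables. The miR-99/100 and miR-125 precursors belong to the wider miR-10 family. Within the first 10 bases of the 5′ arms, miR-100 shares the run accc with miR-10a from base 2. Later bases were not compared. Of these 6 precursors 0 passed an adjusted DESeq2 p of 0.05 in any organ. At an unadjusted p under 0.05 there were 3 in kidney, 0 in spleen, 1 in liver, 1 in heart and 2 in brain. The share of all features with a p was 4.5% in kidney, 3.48% in spleen, 3.9% in liver, 5.33% in heart and 2.23% in brain. The 6 were measured in the same libraries and are not independent counts. Their median log2 fold change was -0.44 in kidney, 0.07 in spleen, -0.68 in liver, -0.41 in heart and -0.25 in brain. Mir125a, the most abundant of them in kidney, was at -1.77, with a standard error of 0.62, in the authors' deposited table.

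The let-7 and miR-98 precursors had 10 of 12 members with a fold change in each organ, and 0 of these passed the adjusted threshold. At an unadjusted p under 0.05 there were 5 in kidney, 1 in spleen, 0 in liver, 5 in heart and 2 in brain. Beside them stand the same all-feature shares, 4.5%, 3.48%, 3.9%, 5.33% and 2.23% in that order of organs. These precursors, too, were measured in the same libraries and are not independent counts. Signs were negative for 10 of 10 in kidney, 7 in spleen, 9 in liver, 10 in heart and 10 in brain, with medians of -1.31 in kidney, -0.04 in spleen, -0.22 in liver, -0.65 in heart and -0.59 in brain. Among all features with a fold change, negative signs numbered 495 of 1025 in kidney, 603 of 1208 in spleen and 418 of 877 in liver. They numbered 466 of 1107 in heart and 523 of 1030 in brain. Mirlet7g, the most abundant of them in kidney, was at -0.41, with a standard error of 0.34, in the authors' deposited table. For the 5 Hox-encoded members the medians were 0.04 in kidney, -0.31 in spleen, 0.14 in liver, 0.02 in heart and -0.09 in brain. Over all features with a fold change they were 0.04 in kidney, 0.00 in spleen, 0.07 in liver, 0.16 in heart and -0.01 in brain.

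The features most like each precursor across the 5 organs were sought by Pearson's r of log2(ppm + 1), as a description over 5 points. Mir196a-1 and Mir196a-2 were closest to each other, with r of 0.999, and then to Mir196b, with 0.989 and 0.988. Both Mir196a copies carry the same 5′ arm, whose reads do not name their locus. Their likeness to each other is therefore not an independent result. Next for each of the miR-196 precursors was Mir7011, at 0.562 ppm in kidney. Mir10b was closest to Mir705 (0.957), Mir1199 (0.957) and Mir196b (0.956), and Mir705 stood at 0.503 ppm in kidney. Mir10a was closest to Mir542 (0.921), Mir452 (0.891) and Mir5101 (0.851). Mir542 stood at 85.8 ppm in kidney, 77.0 ppm in spleen, 43.4 ppm in heart, 37.0 ppm in liver and 10.1 ppm in brain.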

How the data were processed

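NEXTflex small RNA libraries were prepared separately for each sample, per the labels' protocols. Per the submitters' processing notes, the tools were featureCounts, Subread 2.0.3 and DESeq2, and the build was GRCm39. No source at hand names the aligner, the annotation or the treatment of multi-mapping reads. Heart, kidney and liver each hold 1 wild-type library of batch 2, which the tables do not separate, so no within-batch value was computed.

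The authors deposited a table for every organ, with no values per sample (unused columns: 0). Its mean is a signal, counts divided by size factors and averaged over 6 libraries, per the file headers. Fold changes were deposited as log2 values, with standard errors. The statistic is a deposited Wald score. Each p-value, adjusted or not, is the authors' own. As planned for tables without counts, the authors' adjusted p was used at 0.05. In every organ 1 row without a name was left out.

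Means under 1 gave the 6 size factors of an organ (tolerance 1e-11). Member means under 40 were then split into whole reads (relative tolerance 3e-14) with 1 solution each. This step was tried on simulated data for heart and spleen only, with fewer reads than most split members had. Per-library values of more abundant precursors were not analysed here. Precision rests on 3 mice per genotype.

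The named features are the members, Mir615, the 3 features most like each member, and the most abundant of a counted list. Members and lists were chosen with earlier results of these data known. Python 3.11.15, numpy 2.4.6, pandas 2.3.3 and scipy 1.17.1 were used.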

Additional observations from a re-analysis of the deposited data

How the results depend on the processing

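The count of members past the threshold stayed at 0 in each organ when p-values were adjusted over every feature with a p, over those with a mean of 10 or more, or over microRNA symbols, and after fold changes were centred on a median within 0.02 of 0. All 98 values of single contrasts under these settings kept sign and side, but most of this was fixed in advance. Adjusting again leaves the fold changes as they are. An adjusted p is never below the unadjusted DESeq2 p, and 0 of the 25 lay under 0.05. Only the centring could have changed a sign or the count. Differences between organs also stayed at 0 when low features were left out (smallest adjusted p 0.837 over 43 differences). This too was fixed in advance, since 0 of the 50 z tests had an unadjusted p under 0.05. Kidney remained highest for each of 5 members under 3 other scalings, and the whole order was kept in 9 of these 15 cases. Relative to the median of shared features, Mir10a in kidney was 4.25 times the next organ, then liver; the cause was not tested. Leaving out 1 library of the split reads changed the sign in 6 of 11 low contrasts. Brain Mir196a-2 ranged from -1.77 to 1.13 on the log2 scale, the lower value without the library of 21 reads. Leave-one-out fits of the abundant precursors were not run, since the tables hold no counts per library. No paired analysis was possible because the genotypes share no mouse number and the tables hold no values per sample. Each set of brothers held both genotypes and could have served as a block. For that, only the missing values per sample stood in the way. Whether the deposited contrasts took the sets of brothers into account is not stated by any source at hand. The 11 low contrasts rest on 44 to 215 reads each, which sets a counting error of 0.20 to 0.50 on the log2 scale.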

Other observations

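Below the Hox-encoded precursors, kidney exceeded the next organ by less. These features were named after their values were seen. Mir705 was 5.18 times the next organ, at a mean of only 10.95 normalized counts in the authors' deposited kidney table. Mir653 was 4.84 times and Mir190a 3.29 times the next organ, and Mir200b, of the epithelial miR-200 family, 2.52 times. Mir30a, at 2369070 mean normalized counts in the authors' deposited kidney table more abundant than either miR-10 precursor, was 1.71 times the next organ.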
